A study of Mus musculus with 4 samples.

Results

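The comparison described is that of the miR-146a-/- library with the WT library, both from mice treated with DEN and CDHFD, read separately in 5 classes of CD45+ liver cells. Cells with 600 to 6000 detected genes and at most 5% mitochondrial UMIs (unique molecular identifiers, each standing for 1 captured transcript) were kept. A kept cell entered a class when it held at least 1 UMI of the lineage gene of that class and none of the other 4, the lineage genes being Cd3e (T cells), Cd79a (B cells), Ncr1 (NK cells and ILC1), Csf1r (monocytes and macrophages) and Flt3 (dendritic cells). Of the 36286 kept cells of the study, 16153 came from the libraries compared, and 11847 of these entered a class, 5775 in WT and 6072 in miR-146a-/-.

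All mice were female and of the C57BL/6 strain. The WT, miR-146a-/- and miR-146a-/- Ccl5-/- (DKO) mice had received 25 mg/kg of the liver carcinogen diethylnitrosamine (DEN) by intraperitoneal injection on day 14, were weaned on day 21 onto a choline-deficient diet with 60% fat (CDHFD), and were 36 weeks old by the labels. An untreated WT group was 8 weeks old and is called young WT. How many mice were pooled into a library was not stated. CD45+ cells were sorted from liver suspensions and made into 1 library per group with the 10x Genomics 5′ kit. The question was which transcripts differ between the genotypes in every immune class alike, and which in 1 class alone.

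MiR-146a is transcribed in response to NF-kB, the transcription factor activated by Toll-like and interleukin-1 receptors, and represses the adaptor proteins IRAK1 and TRAF6 of the same pathway. It is therefore known as a brake on inflammatory signaling in myeloid cells and T cells, and mice that lack it develop chronic inflammation. In the liver, such signaling runs in resident macrophages, recruited monocytes, T cells and NK cells, all of which carry CD45.

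The mature strand of the deleted miRNA is shown with its closest relative, since the first bases of a miRNA decide which transcripts it can pair with. The capitals mark the seed, bases 2 to 8. The sequences are from RefSeq for GRCm38.p6, where miR-146a-5p lies on the minus strand at chr11:43374435-43374456 and miR-146b-5p on the plus strand at chr19:46342790-46342811.
mmu-miR-146a-5p: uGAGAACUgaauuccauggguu
mmu-miR-146b-5p: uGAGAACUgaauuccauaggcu
Of 1738 mature mouse miRNAs in that table, these 2 carry this seed, so that loss of miR-146a leaves the seed present in miR-146b. The matrices list no gene for the 65-base hairpin of miR-146a (chr11:43374397-43374461), and its deletion could not be checked in the counts.

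The WT library held 103165826 UMIs and the miR-146a-/- library 88706063, against 103147246 in DKO and 90756272 in young WT. Kept cells had a median of 8210 UMIs in WT and 7910 in miR-146a-/-. Expression was read from the UMIs of a gene summed over the cells of a class, scaled to 1e6 UMIs of that class (CPM). The class totals of WT and miR-146a-/- were 25949489 and 27389205 UMIs for Cd3e, 4730656 and 3480882 for Cd79a, and 11782849 and 8528531 for Ncr1. They were 5620371 and 12790840 UMIs for Csf1r and 2891866 and 3608241 for Flt3. Both libraries used 96 cell barcodes in common among kept cells, 1.15% of those of WT. The 6 markers listed for each class (such as Cd3d for T cells and Cd79b for B cells) were highest in their own class in both libraries, 6 of 6 for each class except Ncr1, where it was 5 of 6 because Nkg7 was highest in the Cd3e class. Their summed level in the own class was 3877 CPM in WT and 4149 CPM in miR-146a-/- for Cd3e, and 10408 and 11454 CPM for Csf1r.

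The share of kept cells differed between the libraries most for the Csf1r class. This class held 516 cells, or 6.20% (exact 95% binomial interval 5.69% to 6.73%), in WT and 1101 cells, or 14.1% (13.3% to 14.9%), in miR-146a-/-. It held 20.2% of kept cells in DKO and 1.65% in young WT. Monocytes and macrophages thus took a larger share in both treated libraries without miR-146a. Cd3e cells made up 37.4% (36.3% to 38.4%) in WT and 43.8% (42.7% to 44.9%) in miR-146a-/-, and Flt3 cells 2.08% (1.78% to 2.41%) and 2.63% (2.29% to 3.01%). Ncr1 cells made up 16.4% (15.6% to 17.2%) in WT and 11.9% (11.2% to 12.7%) in miR-146a-/-, and Cd79a cells 7.28% (6.73% to 7.85%) and 5.16% (4.68% to 5.68%). Cells with UMIs of several lineage genes were left out of the classes and made up 26.0% of kept cells in WT and 18.6% in miR-146a-/-, at medians of 13836 and 13947 UMIs. The part of doublets, of free RNA and of cells that express several of these genes was not tested. Of kept cells with Csf1r, the class held 516 of 1820 in WT and 1101 of 2161 in miR-146a-/-. Of those with Flt3, it held 173 of 648 and 206 of 550, and 287 and 257 of these carried Csf1r too. Shares within the classes rest on the cells that remained. With these cells kept in each class they carry a gene of, the WT and miR-146a-/- shares were 21.9% and 27.6% for Csf1r, 24.04% and 15.6% for Ncr1, 57.9% and 57.5% for Cd3e and 7.78% and 7.03% for Flt3. In percentage points the largest difference was then in Ncr1, and the higher Cd3e and Flt3 shares of miR-146a-/- were no longer seen. All intervals given cover counting error alone and leave out variation among mice.

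Each class but Cd79a was divided once more by transcripts, since a class mixes cell states. In the Csf1r and Flt3 classes the gates were taken in turn (Treml4 or Ace, Ly6c2, C1qa; Xcr1 or Clec9a, Siglech, Ccr7), so that a cell of an earlier gate is in no later one. Among Csf1r cells, those with a UMI of Treml4 or Ace, genes of patrolling monocytes, made up 62.0% (57.7% to 66.2%) in WT and 82.9% (80.6% to 85.1%) in miR-146a-/-. Those with Ly6c2, a gene of classical monocytes, made up 16.7% and 9.08%, and those with the complement gene C1qa, found in macrophages, 6.01% (31 cells) and 1.63% (18 cells). The Csf1r class of the miR-146a-/- library was therefore weighted toward the patrolling type. Among Cd3e cells, those with Foxp3, the master regulator of regulatory T cells, made up 2.50% (1.98% to 3.12%) in WT and 8.28% (7.38% to 9.26%) in miR-146a-/-, against 8.54% in DKO and 2.69% in young WT. CD8 cells held 69.0% and 67.6% of the Cd3e class in WT and miR-146a-/-, and 31.8% in young WT. Among Flt3 cells, those with Ccr7, which mature dendritic cells use to migrate to lymph nodes, made up 17.9% (12.5% to 24.5%, 31 cells) in WT and 2.91% (1.08% to 6.23%, 6 cells) in miR-146a-/-. Plasmacytoid cells with Siglech held 6.36% and 12.6%, and cDC1 with Xcr1 or Clec9a 65.9% and 72.3%. The plot of class shares shows these sub-gates beside the classes, and values within them are given below for some of the named genes.

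A small set of genes, led by the immediate-early transcription factors Fos, Fosb and Atf3, was lower in the miR-146a-/- library in T cells, B cells, NK cells and ILC1, monocytes and dendritic cells alike, and no gene was 2-fold higher in all of them. Of 6283 genes measured in all 5 classes (at least 10 CPM on average and 40 UMIs in sum), 7 (0.111%) were at least 2-fold lower in each class, namely Atf3, Fos, Fosb, Nr4a3, Dusp1, Slc15a2 and Gm47283, and 0 (0%) were at least 2-fold higher in each. Differences of 1 class alone, past 2-fold there and under 0.5 on the log2 scale in the other 4, were found for 44 genes (0.7%) in the Csf1r class, 28 (0.446%) in the Flt3 class, 6 (0.0955%) in the Cd79a class, 4 (0.0637%) in the Ncr1 class and 0 (0%) in the Cd3e class. These counts depend on how widely the ratios of each class spread. Ratios under 0.5 were held by 95.1% of measured genes in Cd3e and 93.5% in Ncr1, but 78.9% in Csf1r and 77.7% in Flt3 cells. Genes not measured in all 5 classes, such as Foxp3, could not enter, so 0 in the Cd3e class does not mean that T cells lacked differences of their own. The largest differences in the Cd3e, Cd79a and Csf1r classes were in genes of neutrophils, a cell type for which no class was gated. The number of measured genes at least 2-fold higher in miR-146a-/- was 36 of 8249 (0.436%) in the Cd3e class, 101 of 8072 (1.25%) in Cd79a, 13 of 8220 (0.158%) in Ncr1, 177 of 7714 (2.29%) in Csf1r and 171 of 8150 (2.1%) in Flt3. At least 2-fold lower were 64 (0.776%), 148 (1.83%), 102 (1.24%), 293 (3.8%) and 231 (2.83%), in the same order. With 1 library per genotype there was no test, and every count is one of genes past a fold. With cells of several lineages kept in each class they carry a gene of, the shared lower genes numbered 14, the shared higher 1 (Hp) and the genes of 1 class alone 2, 0, 7 and 5 in Cd3e, Cd79a, Csf1r and Flt3 cells, and with every cell thinned to 2000 UMIs the Csf1r class had 13.

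Fos, which pairs with Jun proteins to form the transcription factor AP-1, stood in the Cd3e class at 407 CPM (exact 95% Poisson interval 400 to 415) in WT, 70.9 CPM (67.8 to 74.2) in miR-146a-/-, 101 CPM in DKO and 566 CPM in young WT. In Ncr1 cells it stood at 802 CPM (786 to 818) in WT, 107 CPM (100.1 to 114) in miR-146a-/-, 149 CPM in DKO and 987 CPM in young WT. Both WT libraries were thus high and both libraries without miR-146a low. The Csf1r class held the highest Fos level of WT with 2522 CPM, against 789.8 CPM in miR-146a-/-, 983 CPM in DKO and 2691 CPM in young WT. The log2 ratio of miR-146a-/- to WT was -2.52 in Cd3e, -2.12 in Cd79a, -2.91 in Ncr1, -1.68 in Csf1r and -1.74 in Flt3 cells. Cells with at least 1 Fos UMI made up 58.2% of Cd3e cells in WT and 21.2% in miR-146a-/-. Fosb, another Fos family member, had log2 ratios of -2.37, -1.61, -2.92, -2.53 and -2.10 in the same order, from 93.5 CPM in WT to 12.3 CPM in miR-146a-/- in the Ncr1 class, with 17.6 CPM in DKO and 65.7 CPM in young WT. Atf3, a stress-induced factor of the ATF/CREB family that dampens inflammatory genes, was led by the Csf1r class with 965 CPM (939 to 991) in WT, 264 CPM (255 to 273) in miR-146a-/-, 287 CPM in DKO and 951 CPM in young WT. It was lower in every class, by log2 ratios from -1.87 in Csf1r to -2.83 in Cd3e cells, where it stood at 29.0 CPM in WT and 4.05 CPM in miR-146a-/-.

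**Figure D1:**
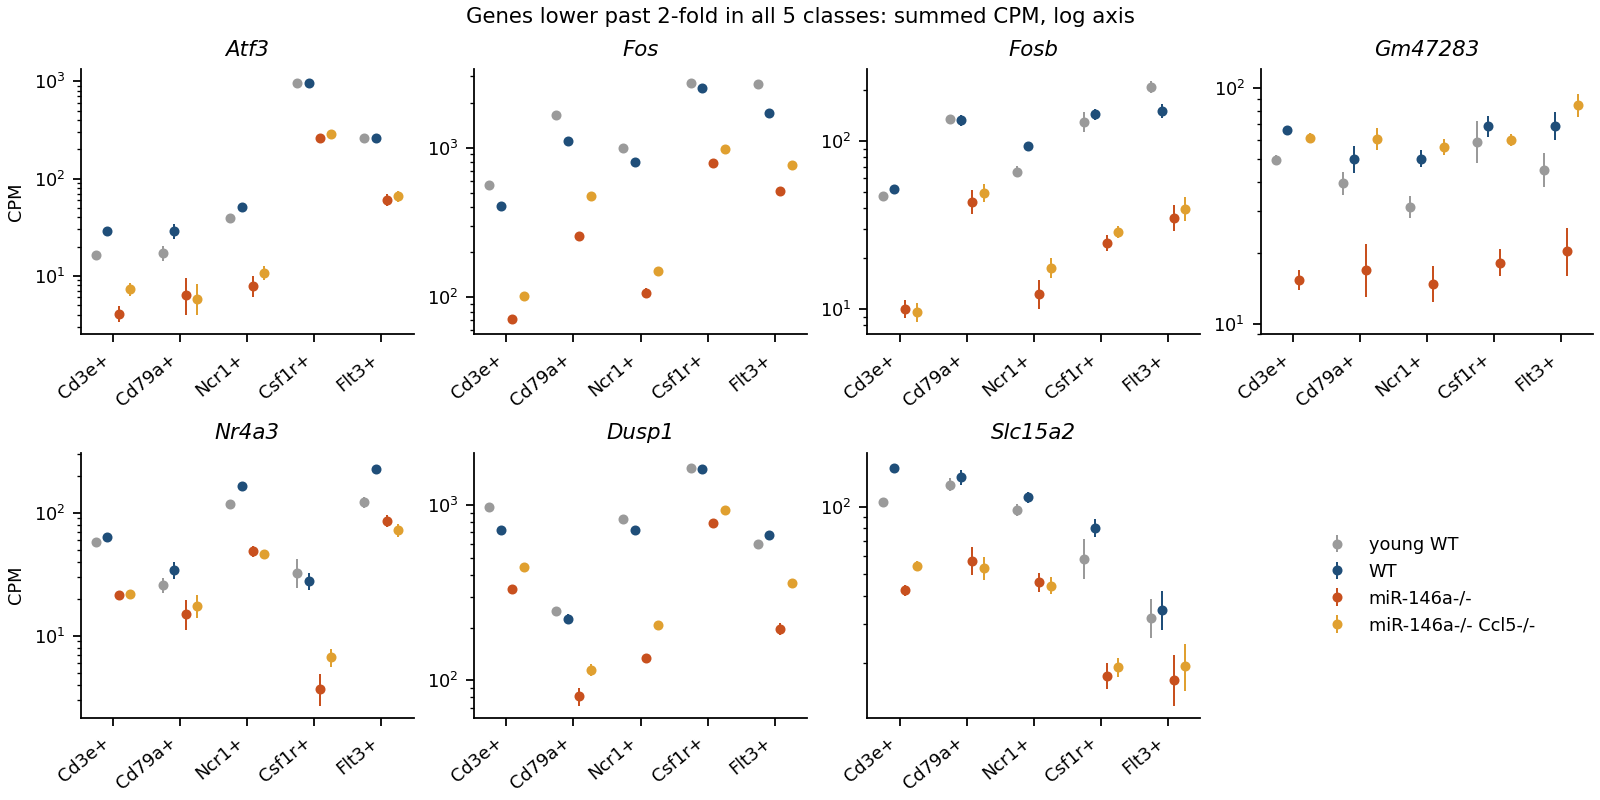
Level of the 7 genes at least 2-fold lower in all 5 classes, in CPM on a log axis, by class and library, with exact 95% Poisson intervals as error bars. In each class the miR-146a-/- points lie below the WT points, and for every gene but Gm47283 the DKO points lie below the WT points too.

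Nr4a3 encodes an orphan nuclear receptor that is switched on by antigen receptor and cytokine signals. It stood at 63.1 CPM in WT and 21.4 CPM in miR-146a-/- in Cd3e cells (21.7 CPM in DKO, 57.5 CPM in young WT) and at 27.8 and 3.68 CPM in Csf1r cells (6.65 CPM in DKO, 32.3 CPM in young WT). Its log2 ratios were -1.56 in Cd3e, -1.18 in Cd79a, -1.77 in Ncr1, -2.90 in Csf1r and -1.42 in Flt3 cells. Dusp1, the phosphatase that switches off p38 and JNK kinases, stood at 720 CPM in WT and 134 CPM in miR-146a-/- in Ncr1 cells, with 208 CPM in DKO and 836 CPM in young WT. Its log2 ratio was -2.42 there and -1.10, -1.47, -1.03 and -1.79 in Cd3e, Cd79a, Csf1r and Flt3 cells. The Cd3e and Csf1r ratios lie close to the threshold of 2-fold, and Dusp1 left the shared set with TMM factors, with the mean over cells, with thinning and with cells of several lineages kept. Slc15a2 (PEPT2), a transporter of di- and tripeptides that also brings small bacterial peptides into cells, is no immediate-early gene. It stood in Cd3e cells at 149 CPM (144 to 154) in WT, 42.3 CPM (39.9 to 44.8) in miR-146a-/-, 54.4 CPM in DKO and 105 CPM in young WT. Its log2 ratios were -1.82, -1.23, -1.26, -2.18 and -1.03 from Cd3e to Flt3, and it was carried by 48.2% of Cd3e cells in WT and 16.5% in miR-146a-/-. The Flt3 ratio lies close to the threshold, and Slc15a2 left the shared set with 2 UMIs of the lineage gene, with a prior of 5 counts and with thinning.

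Gm47283 was the only one of the 7 that was not low in DKO mice. In the Cd3e class it stood at 66.0 CPM in WT, 15.3 CPM in miR-146a-/-, 61.3 CPM in DKO and 49.6 CPM in young WT, and in the Csf1r class at 68.9, 18.1, 60.2 and 59.1 CPM. The annotation places it on the Y chromosome, at the border of the pseudoautosomal region, although the mice were female. Xist, the transcript of the inactive X chromosome, had 29396 UMIs in WT and 26560 in miR-146a-/- over kept cells, while the Y-linked Uty had 1 UMI in each. A near-identical copy on the X chromosome, Gm21887, was lower too, with log2 ratios of -1.41, -0.999, -1.15, -1.64 and -0.87 from Cd3e to Flt3. Counting could split reads among such copies, so the gene behind this difference is uncertain.

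The 7 genes lie on 7 chromosomes of GRCm38. Atf3 (ENSMUSG00000026628) is on the minus strand at chr1:191170296-191218039, Fos (ENSMUSG00000021250) on the plus strand at chr12:85473890-85477273 and Fosb (ENSMUSG00000003545) on the minus strand at chr7:19302696-19310051. Nr4a3 (ENSMUSG00000028341) is on the plus strand at chr4:48045153-48086447, Dusp1 (ENSMUSG00000024190) on the minus strand at chr17:26505590-26562128, Slc15a2 (ENSMUSG00000022899) on the minus strand at chr16:36750177-36784962 and Gm47283 (ENSMUSG00000096768) on the plus strand at chrY:90784738-90816464. Since these genes differ together, the promoters of the 6 with an entry in the RefSeq table for GRCm38.p6 are shown, 250 bases before to 50 after the start, 5′ to 3′ along the gene. The capitals mark TGACGT, the core of the element bound by CREB and ATF factors, or its reverse complement ACGTCA, and in Dusp1 also the full palindrome TGACGTCA, which contains the core. The Atf3 promoter lies at chr1:191183284-191183583 (minus strand), that of Fos at chr12:85473640-85473939 (plus), of Nr4a3 at chr4:48045055-48045354 (plus), of Dusp1 at chr17:26508423-26508722 (minus), of Slc15a2 at chr16:36784913-36785212 (minus) and of Fosb at chr7:19309996-19310295 (minus).
Atf3: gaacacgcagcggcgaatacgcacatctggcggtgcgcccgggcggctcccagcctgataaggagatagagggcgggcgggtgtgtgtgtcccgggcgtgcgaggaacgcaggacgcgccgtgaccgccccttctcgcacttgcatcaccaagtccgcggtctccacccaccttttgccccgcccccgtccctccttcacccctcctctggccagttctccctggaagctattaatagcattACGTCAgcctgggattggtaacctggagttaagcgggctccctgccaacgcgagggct
Fos: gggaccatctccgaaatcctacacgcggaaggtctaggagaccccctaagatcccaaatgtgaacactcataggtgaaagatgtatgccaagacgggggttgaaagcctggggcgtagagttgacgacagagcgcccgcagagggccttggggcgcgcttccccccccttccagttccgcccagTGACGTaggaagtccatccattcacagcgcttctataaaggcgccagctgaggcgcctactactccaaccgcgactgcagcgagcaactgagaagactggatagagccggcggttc
Nr4a3: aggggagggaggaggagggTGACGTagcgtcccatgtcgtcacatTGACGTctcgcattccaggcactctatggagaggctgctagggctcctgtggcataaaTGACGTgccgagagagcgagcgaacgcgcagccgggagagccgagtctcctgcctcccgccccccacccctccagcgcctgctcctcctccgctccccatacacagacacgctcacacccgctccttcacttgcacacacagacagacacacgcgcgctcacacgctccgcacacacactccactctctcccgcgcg
Dusp1: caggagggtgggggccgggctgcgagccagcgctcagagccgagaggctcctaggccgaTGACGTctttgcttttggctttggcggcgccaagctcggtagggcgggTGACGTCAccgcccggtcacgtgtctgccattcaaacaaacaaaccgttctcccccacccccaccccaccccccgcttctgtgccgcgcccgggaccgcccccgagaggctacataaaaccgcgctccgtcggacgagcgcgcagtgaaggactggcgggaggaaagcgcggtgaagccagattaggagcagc
Slc15a2: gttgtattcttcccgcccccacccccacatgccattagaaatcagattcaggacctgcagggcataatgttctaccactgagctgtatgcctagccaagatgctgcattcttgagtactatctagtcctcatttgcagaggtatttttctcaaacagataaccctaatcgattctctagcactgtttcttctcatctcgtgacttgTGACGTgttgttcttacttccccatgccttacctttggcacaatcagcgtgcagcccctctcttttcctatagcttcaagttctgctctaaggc
Fosb: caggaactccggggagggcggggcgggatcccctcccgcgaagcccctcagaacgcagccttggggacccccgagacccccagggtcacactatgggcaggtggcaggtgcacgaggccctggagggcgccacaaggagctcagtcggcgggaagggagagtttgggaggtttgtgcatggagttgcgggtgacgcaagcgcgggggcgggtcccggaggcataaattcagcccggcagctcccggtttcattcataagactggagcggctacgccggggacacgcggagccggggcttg
TGACGT, read on both strands, was present in 5 of the 6 promoters, all but Fosb, and in 7.51% of 32851 mouse promoters of the same length. TGACGTCA was in 1 of the 6, against 1.79% of all promoters. TGAGTCA, the element of AP-1, was in 0 of the 6 and in 5.20% of all promoters, and CCAAT in 1 of the 6, that of Atf3, and in 37.4% of all. Among the 31 genes at least 1.5-fold lower in every class, these 7 included, 23 had an entry, some with several promoters, and TGACGT was found for 8 of the 23, TGACGTCA for 3, TGAGTCA for 3 and CCAAT for 13. These matches describe the letters of the promoters and do not show that a factor binds them.

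Other genes of the early response were lower as well. Beyond the 7, another 24 genes were at least 1.5-fold lower in every class, among them Jun, Junb, Csrnp1, Klf6, Cd69, Cd83, Rgs1, Gadd45b, Ppp1r15a, Tnfaip3 and the heat shock genes Hspa1a, Hspa1b and Dnajb1. The others were Rhob, Ifrd1, Tgif1, Snhg15, Glipr1, Vps37b, Basp1, Mpp7, Apoe, 9930111J21Rik2 and Gm21887, of mixed functions. Jun stood at 411 CPM in WT and 157 CPM in miR-146a-/- in Cd3e cells (201 CPM in DKO, 935 CPM in young WT) and at 923 and 272 CPM in Ncr1 cells (351 CPM in DKO, 991 CPM in young WT). Of the immediate-early list of 28 genes, 9 of 24 measured were at least 2-fold lower in Cd3e cells (median log2 ratio -0.84, against 0.01 over all measured genes), 10 of 25 in Cd79a (-0.87, against 0.01), 19 of 26 in Ncr1 (-1.41, against 0.02), 12 of 25 in Csf1r (-0.98, against -0.01) and 18 of 26 in Flt3 (-1.25, against 0.09). None of them was 2-fold higher in any class. The list did not move as a block: Nr4a1, induced by the same signals as Nr4a3, had log2 ratios of -1.29, -1.57, -2.23 and -1.60 in Cd3e, Cd79a, Ncr1 and Flt3 cells but 0.10 in Csf1r cells, at 739 CPM in WT and 790.3 CPM in miR-146a-/-. Egr1 had -0.30, -0.88, -0.37 and -0.53 in Cd3e, Cd79a, Ncr1 and Csf1r cells and -2.12 in Flt3 cells. Klf4, a factor of monocyte maturation, stood in Ncr1 cells at 19.7 CPM in WT and 2.58 CPM in miR-146a-/- (3.68 CPM in DKO, 17.3 CPM in young WT), and in Csf1r cells at 207 and 174 CPM. Of the heat shock and stress list of 21 genes, 2 of 19 measured were 2-fold lower in Cd3e cells (median -0.31), 3 of 20 in Cd79a (-0.34), 4 of 18 in Ncr1 (-0.32), 3 of 20 in Csf1r (-0.55) and 2 of 18 in Flt3 (-0.16), while Ddit4 was 2-fold higher in Cd79a and Flt3 cells and Gadd45a in Csf1r cells. Of all measured genes 0.776%, 1.83%, 1.24%, 3.8% and 2.83% were lower from Cd3e to Flt3. Hspa1a, an inducible chaperone, was lower in every class, from 226 CPM in WT to 51.4 CPM in miR-146a-/- in Ncr1 cells (60.8 CPM in DKO, 229 CPM in young WT).

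The shared genes were low within the sub-gates as well. All 7 were past 2-fold lower in CD8 cells, in both gates of the Ncr1 class (with Eomes, and with Il7r or Cd200r1 but no Eomes), in Treml4 or Ace monocytes and in Xcr1 or Clec9a dendritic cells. In regulatory T cells 4 of the 6 measured there passed 2-fold and all 6 had a ratio below 0, and in the 31 and 6 Ccr7 cells of the Flt3 class 2 of 5 passed it and 4 were below 0. Of those measured, 5 of 7 passed it in CD4 cells without Foxp3, 5 of 6 in Ly6c2 monocytes, 3 of 5 in C1qa macrophages and 2 of 2 in Siglech cells, all with ratios below 0. The log2 ratio of Fos ran from -1.02 in C1qa macrophages to -3.69 in Ncr1 cells with Il7r or Cd200r1. Slc15a2 stood at 163 CPM in WT and 35.8 CPM in miR-146a-/- in CD8 cells and at 164 and 50.02 CPM in Foxp3 cells.

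No gene was 2-fold higher in every class, and among the genes nearest to it, which miss the threshold, were 1810009A15Rik, Ide, Pet100 and D130009I18Rik. The uncharacterized gene 1810009A15Rik had log2 ratios of 1.04, 1.06, 0.81, 0.96 and 1.08 from Cd3e to Flt3, at 16.7 CPM in WT, 34.4 CPM in miR-146a-/-, 30.2 CPM in DKO and 27.3 CPM in young WT in Cd3e cells. Ide, the insulin-degrading enzyme, had 0.93, 0.69, 0.80, 0.74 and 1.59, and in Cd3e cells stood at 46.0, 87.4, 79.99 and 37.4 CPM in the same libraries. Both libraries without miR-146a were above both WT libraries for Ide. Pet100, a factor of cytochrome c oxidase assembly, had ratios from 0.58 to 0.82 and the noncoding D130009I18Rik from 0.57 to 0.95. In Cd3e cells of WT, miR-146a-/-, DKO and young WT, Pet100 stood at 31.2, 49.8, 48.9 and 39.0 CPM. D130009I18Rik stood there at 42.7, 67.6, 56.3 and 77.2 CPM, highest in young WT. Both genes were higher in young WT than in WT in every class.

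Genes of 1 class alone numbered 82 in all, 31 higher and 51 lower, and were of mixed functions. Only 3 of the 82 were still such genes with cells of several lineages kept, and 7 with thinning. In the Csf1r class 16 were higher and 28 lower. Serpinb6a, an inhibitor of cathepsin G and other serine proteases, had the largest ratio, with 20.5 CPM (16.9 to 24.6) in WT, 108 CPM (103 to 114) in miR-146a-/-, 172 CPM in DKO and 46.3 CPM in young WT. Its log2 ratio of 2.40 (counting interval 2.13 to 2.69) stood beside -0.04 in Cd3e, 0.27 in Cd79a, 0.31 in Ncr1 and 0.25 in Flt3 cells, and 12.0% of Csf1r cells carried it in WT against 49.0% in miR-146a-/-. Within Treml4 or Ace monocytes alone it stood at 24.3 and 120.2 CPM (log2 ratio 2.30). Unc119, an adaptor of lipid-anchored Src kinases, stood at 67.4 and 199 CPM (174 CPM in DKO, 121 CPM in young WT), and the assembly factor of mitochondrial complex I Ndufaf7 at 20.6 and 56.1 CPM (49.2 and 32.9 CPM). Hsd11b1, which regenerates active glucocorticoid, stood at 11.7 and 32.6 CPM (26.1 and 25.0 CPM), with a log2 ratio of 1.47 that was -0.02 once cells of several lineages were kept in the class. Lower in this class were Adam19, a membrane metalloprotease, with 22.4 CPM in WT and 6.57 CPM in miR-146a-/- (8.35 CPM in DKO, 28.7 CPM in young WT), and the nucleosome-binding protein Hmgn1 with 34.7 and 10.3 CPM (16.2 and 15.8 CPM). Nceh1, a cholesterol ester hydrolase of macrophages, stood at 61.0 and 18.8 CPM (33.8 and 32.9 CPM), and the noncoding Pvt1 at 19.6 and 7.04 CPM (13.9 and 34.1 CPM). Adam19 was abundant in T cells, where it stood at 225 CPM in WT and 292 CPM in miR-146a-/-. In Treml4 or Ace monocytes alone the log2 ratios were -1.91 for Adam19, -1.33 for Hmgn1, -1.55 for Nceh1 and -1.16 for Pvt1. Only Serpinb6a and Nceh1 of these 8 were still past 2-fold with cells of several lineages kept.

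**Figure D2:**
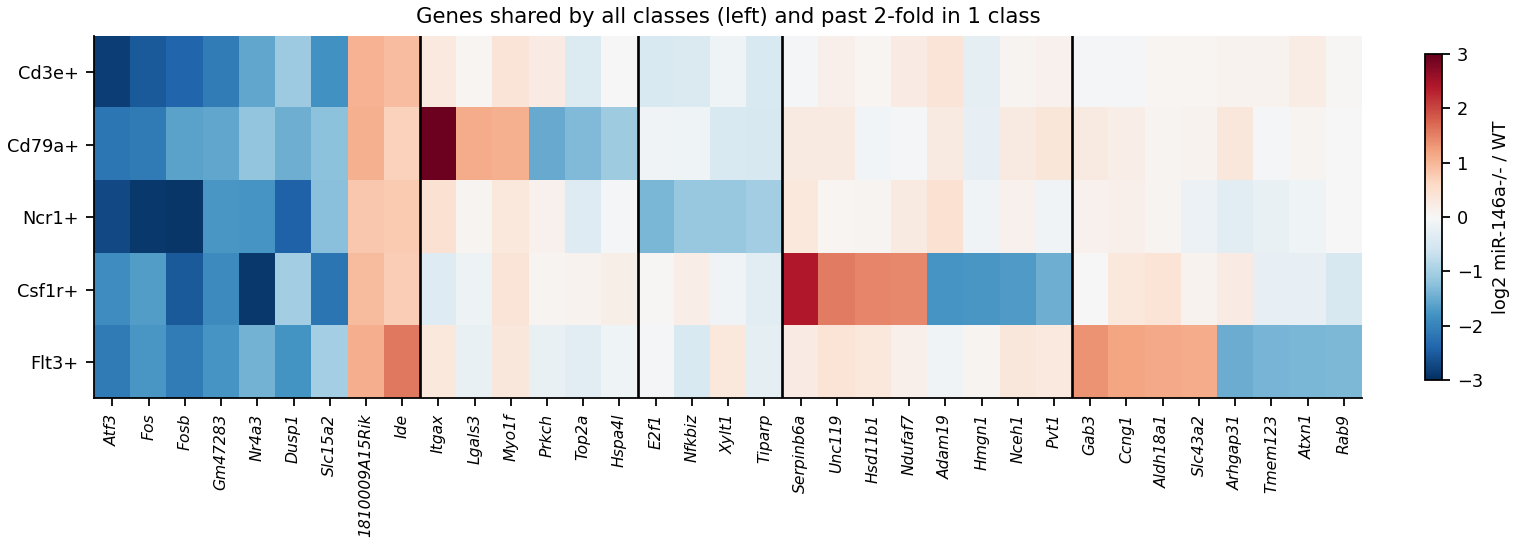
Log2 ratio of miR-146a-/- to WT (colors, limited to 3 on either side of 0) in the 5 classes for the 7 shared genes, 2 of the genes nearest to being higher in every class, and the genes of 1 class alone. The shared genes are low and the genes nearest to higher are high in every class, while the genes of 1 class alone are strongly colored in their own class only.

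In the Flt3 class 12 genes of 1 class alone were higher and 16 lower. Ccng1, a cyclin G induced by p53, stood at 54.3 CPM in WT, 123 CPM in miR-146a-/-, 102 CPM in DKO and 69.3 CPM in young WT (log2 ratio 1.18). Gab3, a scaffold of cytokine receptor signaling, stood at 9.68 and 24.9 CPM in WT and miR-146a-/- (13.3 CPM in DKO, 18.0 CPM in young WT). Aldh18a1, of proline synthesis, stood at 8.65 and 19.1 CPM (14.1 and 12.3 CPM), and the amino acid transporter Slc43a2 at 19.4 and 41.9 CPM (31.8 and 28.4 CPM), a log2 ratio of 1.11 that was -0.14 when cells were thinned to 2000 UMIs. Tmem123 (porimin), a mucin-like surface receptor, was lower with 744 CPM (713 to 776) in WT and 283 CPM (266 to 301) in miR-146a-/-, 393 CPM in DKO and 229 CPM in young WT. Arhgap31, which inactivates the GTPases Cdc42 and Rac1, stood at 80.2 and 28.6 CPM (39.8 and 42.2 CPM), Atxn1 (ataxin-1) at 127 and 49.3 CPM (54.4 and 22.7 CPM), and Rab9, a GTPase of late endosomes, at 70.5 and 27.4 CPM (36.5 and 30.6 CPM). The class holds fewer Ccr7 cells in miR-146a-/-, and within Xcr1 or Clec9a cells alone the ratios of Tmem123 and Atxn1 were -0.86 each, under 2-fold, while Arhgap31 had -1.27, Rab9 -1.06, Gab3 1.27, Ccng1 1.15 and Aldh18a1 1.38. With cells of several lineages kept all 8 were under 2-fold, from -0.38 for Arhgap31 and -0.68 for Rab9 to 0.27 for Gab3, 0.33 for Aldh18a1 and 0.44 for Ccng1.

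In the Ncr1 class all 4 genes of 1 class alone were lower. Nfkbiz, which encodes the nuclear NF-kB co-regulator IkB-zeta, stood at 239 CPM (230.5 to 248) in WT, 109 CPM (102 to 116) in miR-146a-/-, 103 CPM in DKO and 221 CPM in young WT, while in Csf1r cells it stood at 239.8 CPM in WT and 275 CPM in miR-146a-/-. Tiparp, a mono-ADP-ribosyltransferase induced by the aryl hydrocarbon receptor, stood at 22.8 and 11.1 CPM (11.4 CPM in DKO, 26.5 CPM in young WT). Both genes were low in both Ncr1 gates, with log2 ratios of -1.29 and -1.05 for Nfkbiz and -1.08 and -1.13 for Tiparp. E2f1, a transcription factor of the cell cycle, stood at 16.8 and 6.45 CPM (10.7 and 5.79 CPM), and Xylt1, which starts glycosaminoglycan chains on proteoglycans, at 16.7 and 7.62 CPM (8.83 and 10.9 CPM). Xylt1 had a ratio of -1.94 in Ncr1 cells with Eomes and -0.03 in those with Il7r or Cd200r1, so it differed in the NK cell gate. All 4 were under 2-fold with cells of several lineages kept.

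In the Cd79a class 3 genes of 1 class alone were higher and 3 lower. Itgax, which encodes CD11c and marks age-associated B cells, stood at 3.80 CPM in WT, 29.9 CPM in miR-146a-/-, 13.8 CPM in DKO and 5.48 CPM in young WT, resting on 18 and 104 UMIs in 14 and 23 cells. Lgals3, which encodes the lectin galectin-3, stood at 44.8 and 97.7 CPM (30.2 CPM in DKO, 14.8 CPM in young WT), and Myo1f, a myosin of white blood cells, at 33.4 and 70.4 CPM (35.1 and 28.8 CPM). Itgam, the gene of CD11b, was higher in these cells as well, with 9.30 and 29.3 CPM (6.53 and 6.54 CPM). Top2a, a topoisomerase of dividing cells, was lower with 77.8 CPM in WT and 31.0 CPM in miR-146a-/- (43.7 and 32.1 CPM). The kinase gene Prkch stood at 17.6 and 6.03 CPM (10.1 and 24.2 CPM), and the chaperone gene Hspa4l at 18.8 and 8.91 CPM (13.8 and 18.2 CPM). With cells of several lineages kept only Top2a was still past 2-fold, and the log2 ratio was 0.70 for Itgax, 0.08 for Lgals3 and -0.31 for Prkch. Of 28 cell cycle genes, 9 of 24 measured were 2-fold lower in Cd79a cells (median -0.90), against 0 of 27 in Cd3e (-0.29), 0 of 26 in Ncr1 (-0.45), 0 of 14 in Csf1r (-0.22) and 0 of 26 in Flt3 (-0.42). The share of all measured genes that were lower was 1.83%, 0.776%, 1.24%, 3.8% and 2.83% in the same order. The cell cycle genes were not low in Cd79a cells alone. Within gates they were lower elsewhere too, 7 of 26 in Xcr1 or Clec9a cells (-0.79), 3 of 24 in Ncr1 cells with Il7r or Cd200r1 and 8 of 24 in the remaining Ncr1 cells. Of all genes measured in these gates 198 of 8056, 119 of 8233 and 138 of 6363 were lower. Other gates ran the other way, with 3 of 17 higher and 0 lower in Ly6c2 monocytes (median 0.24). In Treml4 or Ace monocytes 2 of 10 were higher and 0 lower (0.06), and Foxp3 cells had a median of 0.34. Monocyte markers were also higher in Cd79a cells, at 84.8 CPM in sum in WT and 175 CPM in miR-146a-/-, and neutrophil markers far more so, as given below. The part of either cell type in the Itgax, Itgam, Lgals3 and Myo1f values was not tested. Genes measured in a single class were counted apart, and 61 of 338 in Cd79a were 2-fold higher and 59 lower, 58 and 43 of 308 in Csf1r, 46 and 45 of 289 in Flt3, 19 and 9 of 201 in Cd3e and 3 and 4 of 177 in Ncr1.

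The largest single ratios were led by granule genes of neutrophils and their precursors, which carry iron-binding and antimicrobial proteins. Ngp had 0 UMIs in Csf1r cells of WT and 13732 in miR-146a-/- (1074 CPM, at least 2.01e+03-fold higher when WT is set at a floor of 3 counts; 885 CPM in DKO), in 54 cells. Camp was at least 1.69e+03-fold and Ltf at least 609-fold higher there, each with 0 UMIs in WT, and Lcn2 stood at 4.45 and 526 CPM and Wfdc21 at 1.96 and 199 CPM. Summed over the 8 neutrophil markers, Csf1r cells held 434 CPM in WT, 10445 CPM in miR-146a-/-, 7971 CPM in DKO and 1419 CPM in young WT, and 7 of 8 were 2-fold higher, S100a9 being the most abundant and Camp, Ngp and Ltf at 0 in WT. Few cells carried them: 14 Csf1r cells of WT and 85 of miR-146a-/- had at least 10 UMIs of S100a8, and 0 and 30 had at least 10 of Ngp. In Cd79a cells the same sum was 25.8 CPM in WT, 3382 CPM in miR-146a-/-, 5.23 CPM in DKO and 1.74 CPM in young WT. There Ngp (0 and 1069 UMIs, at least 484-fold), Ltf (0 and 373 UMIs, at least 169-fold), Camp (1 and 770 UMIs, log2 ratio 9.38, interval 7.55 to 15.34), Lcn2 (2 and 436 UMIs, 7.85, 6.35 to 11.26) and S100a8 (8.11) were the largest, with Ngp in 13 cells of which 1 gave 42.9% of its UMIs. In Cd3e cells the sum was 19.3 CPM in WT, 326 CPM in miR-146a-/-, 268 CPM in DKO and 41.2 CPM in young WT, and Ngp (1 and 703 UMIs, 8.81, 6.90 to 14.69), S100a8 (4.36) and S100a9 (3.74) led, with 56.6% of Ngp UMIs from 1 cell. In Flt3 cells the order was turned, with 95.8 CPM in WT and 7.21 CPM in miR-146a-/-, and 1 cell gave 98.7% of the S100a8 UMIs of WT, whose log2 ratio was -4.14 and turned to 0.96 when 2 UMIs of Flt3 were required. The part of neutrophils and of their free RNA in these values was not tested.

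Red cell, Kupffer cell, plasma cell and other markers were read in the same way. Hemoglobin genes were the largest lower genes of the Csf1r class, with Hbb-bt at 160 and 0 UMIs, Hbb-bs at 165 and 1.10 CPM, Hba-a1 at 87.7 and 0.625 CPM and Hba-a2 at 62.6 and 0.156 CPM (2 UMIs in miR-146a-/-, log2 ratio -8.22, -11.70 to -6.78), and 1 cell of WT gave 99.6% of the Hbb-bs UMIs. The 5 red cell markers summed to 349 CPM in WT and 2.11 CPM in miR-146a-/- in these cells, and to 233 and 548 CPM in Cd3e cells, where Hbb-bt had a ratio of 2.02 in 7 and 13 cells. Kupffer cell markers, of the resident macrophages of the liver, summed to 61.2 CPM in Csf1r cells of WT and 8.83 CPM of miR-146a-/- (19.9 CPM in DKO, 30.5 CPM in young WT), led by Cd5l in WT, with Clec4f at 0 in miR-146a-/-. Plasma cell markers summed to 3246 CPM in Cd79a cells of WT and 1594 CPM of miR-146a-/- (11403 CPM in DKO, 5369 CPM in young WT), led by Jchain, with 2 of 4 measured 2-fold lower. Hepatocyte markers, led by Trf, summed to 166 and 63.9 CPM in Csf1r cells and 29.2 and 15.4 CPM in Cd3e cells. Endothelial markers summed to 28.5 and 145 CPM in Csf1r cells, led by Pecam1, which monocytes express too. Platelet markers summed to 10.3 and 1.02 CPM in Csf1r cells, while stellate markers and mast cell or basophil markers were at most 3.11 CPM in any class of either library. The part of these cells in the ratios was not tested.

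**Figure D3:**
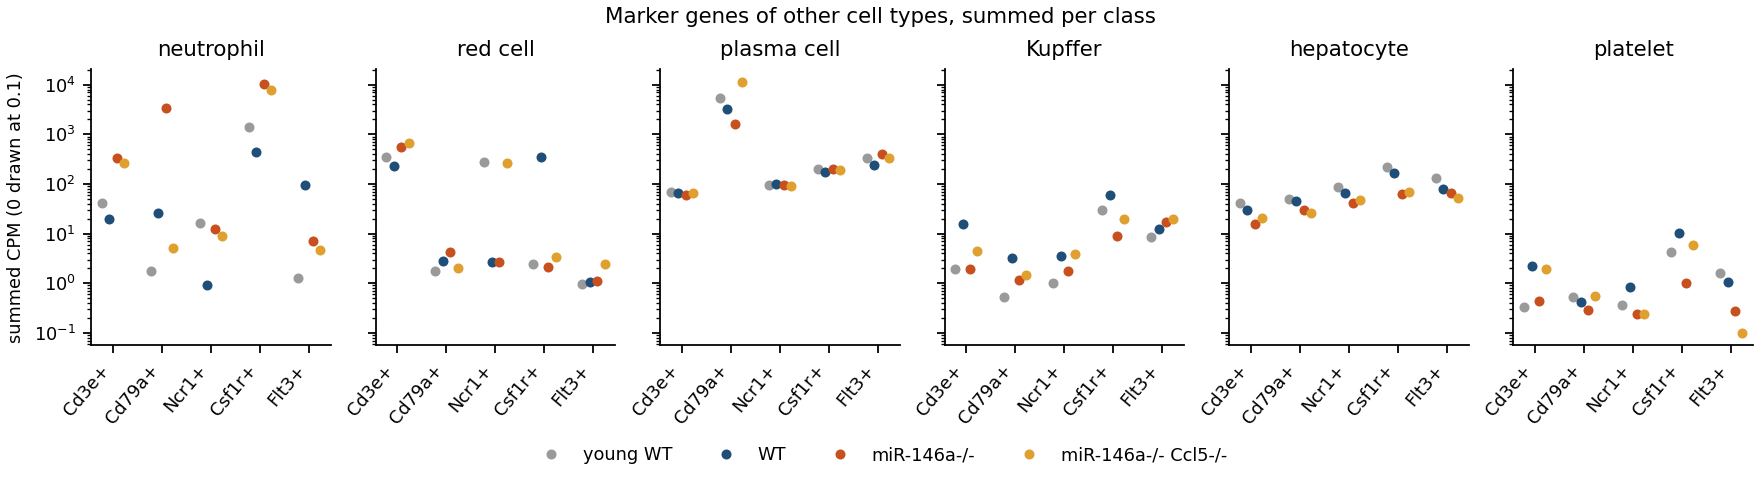
Summed level of markers of 6 cell types outside the 5 classes, in CPM on a log axis (0 drawn at 0.1), by class and library. Neutrophil markers are higher in the miR-146a-/- than in the WT library in 4 classes (10445 and 434 CPM in Csf1r cells) and lower in the Flt3 class.

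Other large ratios lay in genes that belong to the classes. In Cd3e cells Foxp3 stood at 12.1 CPM (10.8 to 13.6) in WT, 54.2 CPM (51.5 to 57.0) in miR-146a-/-, 54.6 CPM in DKO and 15.9 CPM in young WT, found in 78 and 284 cells, and with CD8 cells alone it was not higher (log2 ratio -0.20). Coch, which encodes cochlin, stood at 153 CPM (149 to 158) in WT, 26.7 CPM (24.8 to 28.7) in miR-146a-/-, 29.6 CPM in DKO and 0.247 CPM in young WT, in 881 and 255 cells. The high level of Coch was found in the treated WT library alone. Gzmc, a granzyme, stood at 23.04 and 2.34 CPM in Cd3e cells (8.28 CPM in DKO, 10.4 CPM in young WT), with 39.3% and 65.6% of its UMIs from 1 cell each. Tgtp1, an interferon-induced GTPase, stood in Cd3e cells at 26.1 CPM in WT, 2.88 CPM in miR-146a-/-, 3.03 CPM in DKO and 47.7 CPM in young WT, and had log2 ratios of -2.98 in Ncr1 and -2.60 in Flt3 cells. Its near-identical neighbor Tgtp2 stood at 54.2 and 46.6 CPM in Cd3e cells, so how the reads were split between the copies is uncertain. Ifi208, an interferon-inducible gene of the PYHIN family, stood in Cd79a cells at 40.6, 2.87, 8.40 and 49.3 CPM in WT, miR-146a-/-, DKO and young WT, and at 89.8 and 21.6 CPM in Cd3e cells of WT and miR-146a-/-.

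In Ncr1 cells the largest higher genes were Gm20528, Klra6, Cx3cr1, Ugt1a7c and Art2b. Cx3cr1, the receptor of fractalkine and a gene of mature NK cells, stood at 13.8 CPM in WT, 41.5 CPM in miR-146a-/-, 31.9 CPM in DKO and 38.6 CPM in young WT. Klra6, a gene of the Ly49 receptors, stood at 7.98, 25.1, 25.3 and 11.6 CPM in the same libraries, and its log2 ratio of 1.65 was 0.06 with cells of several lineages kept. Ugt1a7c stood at 23.7, 64.3, 45.2 and 26.1 CPM, and Gm20528 at 5.26, 20.1, 11.2 and 4.87 CPM. Art2b, an ADP-ribosyltransferase of the cell surface, stood at 7.81, 19.2, 28.4 and 18.0 CPM. The largest lower genes of this class were Tgtp1, Fosb, Klf4, Fos and Atf3, given above. In Cd79a cells the largest lower genes were Ighg2c (570 and 14.9 CPM, 41.2% from 1 cell), Ifi208, Prg2 (112 and 8.62 CPM), the chemokine gene Ccl4 (42.7 and 3.74 CPM; log2 ratio -3.47, and -0.15 with thinning) and the polo-like kinase gene Plk2 (53.3 and 7.18 CPM).

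Pdlim4, whose product binds actin through PDZ and LIM domains, was the largest lower gene of the monocyte class apart from hemoglobin. It stood at 37.2 CPM (32.3 to 42.6) in WT, 0.313 CPM (0.0852 to 0.801) in miR-146a-/-, 0.377 CPM in DKO and 29.9 CPM in young WT, in 127 cells of WT and 4 of miR-146a-/-. In these cells the gene was thus close to 0 in both libraries without miR-146a. Pdlim4 lies at chr11:54054928-54069014, on the chromosome of the deleted miR-146a locus but outside the window of 5 Mb read below. In Flt3 cells it stood at 30.1 CPM in WT and 1.11 CPM in miR-146a-/- (2.21 CPM in DKO, 8.19 CPM in young WT), and within Treml4 or Ace monocytes its log2 ratio was -6.39. The other large lower genes of Flt3 cells were Dscaml1 (64 and 0 UMIs, at least 26.6-fold), S100a8, Ramp3 (46.0 and 3.05 CPM) and the cystine transporter gene Slc7a11 (21.4 and 1.66 CPM), and the higher ones Ccl24 (1 and 172 UMIs, log2 ratio 6.58, 4.61 to 12.42, 1 cell, and -1.70 without the 8% of cells with the most UMIs), Cyp7b1 (1.73 and 26.6 CPM, 52.1% from 1 cell), Gpr25 (2.08 and 20.2 CPM), Serpinh1 (8.30 and 38.8 CPM) and Myh13 (6.92 and 30.8 CPM).

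The NF-kB pathway, on which miR-146a acts, was read from its subunits to its targets. The 5 subunit genes had median log2 ratios of -0.38 in Cd3e, -0.19 in Cd79a, -0.40 in Ncr1, -0.18 in Csf1r and -0.57 in Flt3 cells. Among whole classes, Rel and Relb were 2-fold lower in Flt3 cells alone, though Rel was also 2-fold lower in Ly6c2 monocytes and in the remaining Ncr1 cells. Relb, of the noncanonical pathway, stood in Flt3 cells at 364 CPM in WT, 150.5 CPM in miR-146a-/-, 219 CPM in DKO and 115 CPM in young WT. Among the 22 regulators 0 were 2-fold higher in any class, and 2 of 22 measured in Cd3e, 0 of 21 in Cd79a, 3 of 21 in Ncr1, 1 of 22 in Csf1r and 2 of 22 in Flt3 cells were lower (medians -0.10, -0.13, -0.10, -0.11 and -0.42). Tnfaip3 (A20), a ubiquitin-editing inhibitor of the pathway, stood at 497 and 241 CPM in Cd3e cells (277 CPM in DKO, 388 CPM in young WT), and Nfkbia, the inhibitor IkB-alpha, at 981 and 385 CPM in Ncr1 cells (459 and 907 CPM). Of the 30 target genes 4 of 22 measured in Cd3e, 2 of 18 in Cd79a, 6 of 18 in Ncr1, 10 of 25 in Csf1r and 13 of 25 in Flt3 cells were 2-fold lower and 0 higher, with medians of -0.35, -0.39, -0.44, -0.91 and -1.04. Of all measured genes 0.776%, 1.83%, 1.24%, 3.8% and 2.83% were 2-fold lower in the same order. Il1b, the cytokine interleukin-1 beta, stood in Csf1r cells at 720 CPM in WT, 265 CPM in miR-146a-/-, 309 CPM in DKO and 1118 CPM in young WT, and Il12b, a subunit of interleukin-12, in Flt3 cells at 427, 114, 215 and 34.7 CPM. The Ccr7 gate, smaller in miR-146a-/-, is part of the Flt3 class, and within Xcr1 or Clec9a cells 10 of 24 targets were 2-fold lower (median -0.80), Il12b having -1.75 and Relb -0.94. Of all genes measured in Xcr1 or Clec9a cells 198 of 8056 were lower. No listed target was 2-fold higher in any class as a whole, but 4 of 23 were in CD4 cells without Foxp3 (Cxcl2, Ccl3, Ccl4 and Ccl5), 4 of 11 in Siglech cells and 1 of 20 in C1qa macrophages. In the same gates 0, 3 and 5 were lower. Of all genes measured there 103 of 8335, 128 of 2134 and 54 of 1953 were higher, and 156, 52 and 124 lower. Tnf had smaller log2 ratios, of -0.04 in Cd3e, -0.39 in Ncr1 and -0.89 in Csf1r cells.

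Most measured chemokine genes were lower in Csf1r and Flt3 cells. Of 18 written, 9 of 12 measured were 2-fold lower in Csf1r cells (median -1.37) and 8 of 10 in Flt3 cells (-1.24), where Ccl24 was higher, beside 3.8% and 2.83% of all measured genes (-0.01 and 0.09), against 1 of 6 in Cd3e (-0.49) and 1 of 5 in Ncr1 cells (-0.29). In Cd79a cells 2 were measured, Ccl4 and Ccl5, and both were 2-fold lower (median -2.73), though Ccl4 was not with thinning. Of all measured genes 0.776% were 2-fold lower in Cd3e, 1.24% in Ncr1 and 1.83% in Cd79a cells. Cxcl2, which attracts neutrophils, stood in Csf1r cells at 367 CPM in WT, 98.0 CPM in miR-146a-/-, 162 CPM in DKO and 177 CPM in young WT. Ccl4, which attracts monocytes and T cells, stood there at 367, 88.9, 52.8 and 153 CPM, and in Cd3e cells, where it is abundant, at 1905, 1521, 1121 and 221 CPM. Ccl5, made by activated T cells and NK cells, had log2 ratios of 0.14 in Cd3e cells (22689 CPM in WT and 24947 CPM in miR-146a-/-) and 0.50 in Ncr1 cells (11403 and 16144 CPM), but -0.98 in Csf1r (328 and 166 CPM), -1.99 in Cd79a (103 and 25.9 CPM) and -2.60 in Flt3 cells (1765 and 291 CPM). The ratio of Ccl5 was thus above 0 in the classes where it was most abundant and below 0 in the other 3. Within Cd3e cells it was 2.08 in CD4 cells without Foxp3, 0.03 in CD8 cells and -1.31 in Foxp3 cells. In the monocyte class 1 cell gave 31.7% of the Ccl5 UMIs of miR-146a-/-. T cell markers summed to 55.5 CPM in Csf1r cells of WT, led by Cd28, and 19.2 CPM of miR-146a-/-. They were higher in Cd79a cells (277 and 359 CPM) and Flt3 cells (27.3 and 33.5 CPM). NK cell markers summed to 67.4 and 26.1 CPM in Csf1r, 38.7 and 15.5 CPM in Cd79a and 90.6 and 60.7 CPM in Flt3 cells. The part of T and NK cells in the Ccl4 and Ccl5 ratios was not tested.

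Interferon-stimulated genes were lower in Csf1r cells above all, and genes of MHC class II in Csf1r and Cd3e cells. Of 45 interferon-stimulated genes, 14 of 41 measured were 2-fold lower there (median -0.75), 4 of 31 in Cd79a (-0.30), 4 of 34 in Ncr1 (-0.01), 0 of 37 in Cd3e (0.04) and 4 of 40 in Flt3 cells (-0.00), and 3 were higher in Flt3 cells, where 1 cell of miR-146a-/- gave 83.2% of the Rsad2 and 86.2% of the Ifit3 UMIs. Of all measured genes 3.8% were 2-fold lower in Csf1r, 1.83% in Cd79a, 1.24% in Ncr1 and 2.83% in Flt3 cells, and the medians were -0.01, 0.01, 0.02 and 0.09. The gates were not alike, with 17 of 40 interferon-stimulated genes lower in Treml4 or Ace monocytes (median -0.82) but 1 lower and 2 higher of 41 in Ly6c2 monocytes (-0.12). In the 11 and 26 Siglech cells of the Flt3 class 16 of 24 were higher and 1 lower (1.61), and in C1qa macrophages 1 of 20 was higher and 7 lower (-0.41). Of all measured genes 266 of 7608 were lower in Treml4 or Ace monocytes and 281 of 6241 in Ly6c2 monocytes, where 278 were higher. In Siglech cells 128 of 2134 were higher, and in C1qa macrophages 124 of 1953 lower. Of 11 MHC class II genes, which present antigen to CD4 T cells, 9 of 11 were 2-fold lower in Csf1r (median -1.24) and 4 of 5 measured in Cd3e cells (-2.01), while 0 of 11 were in Cd79a (-0.05), 0 of 6 in Ncr1 (-0.08) and 1 of 11 in Flt3 cells (0.09). H2-Ab1, a class II beta chain, stood in Csf1r cells at 3621 CPM in WT and 1505 CPM in miR-146a-/-, and the invariant chain gene Cd74 at 15197 and 7021 CPM (7732 CPM in DKO). Within Treml4 or Ace monocytes the log2 ratios were -1.21 and -1.07. Of the class II genes measured there 6 of 8 were 2-fold lower, and 8 of 10 in Ly6c2 monocytes, but 0 of 7 in C1qa macrophages (median 0.05). Among T cells 4 of 5 were lower in CD8 and 5 of 7 in Foxp3 cells, but 0 of 5 in CD4 cells without Foxp3 (-0.13). Of all genes measured in these T cell gates 83 of 8137, 108 of 8099 and 156 of 8335 were lower, in the same order. In Cd3e cells Cd74 stood at 574 and 211 CPM, while monocyte markers in these cells summed to 184 and 103 CPM. Dendritic cell markers summed to 13.2 and 6.10 CPM in Cd3e cells and to 71.5 and 22.6 CPM in Csf1r cells. The part of either cell type in the class II ratios was not tested. Of 16 MHC class I genes, H2-Q6 and H2-Q7 were 2-fold lower in Csf1r cells (median -0.50), and none in the other classes, with medians of 0.11 in Cd3e, -0.11 in Cd79a, 0.12 in Ncr1 and -0.14 in Flt3 cells.

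**Figure D4:**
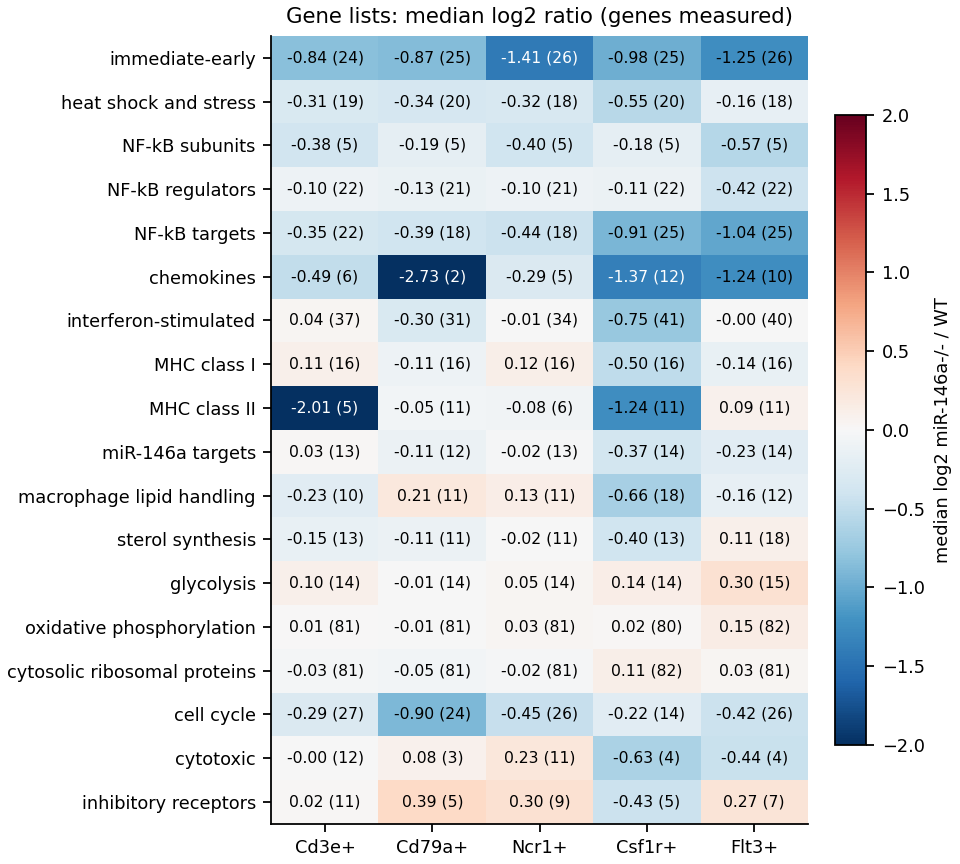
Median log2 ratio of miR-146a-/- to WT over the measured genes of 18 lists in the 5 classes, with the number of measured genes in each field. The immediate-early list is low in all 5 classes, from -0.84 to -1.41, and the MHC class II and chemokine lists are low in Csf1r cells.

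In the classes as a whole, ribosomal protein and oxidative phosphorylation genes were near equal between the libraries, as the plot of list medians shows. Ribosomal protein genes had medians of -0.03, -0.05, -0.02, 0.11 and 0.03 from Cd3e to Flt3, with 1 gene (Rpl3l) 2-fold higher in Csf1r cells. Oxidative phosphorylation genes had medians of 0.01, -0.01, 0.03, 0.02 and 0.15, with Cox6a2 higher in Flt3 cells, and glycolysis genes 0.10, -0.01, 0.05, 0.14 and 0.30, with the glucose transporter gene Slc2a3 higher in Flt3 cells. In the 31 and 18 C1qa macrophages 9 of 11 glycolysis genes were 2-fold higher (median 1.24), where 54 of 1953 measured genes were. Sterol synthesis genes had medians from -0.40 in Csf1r to 0.11 in Flt3 cells, and 0 passed 2-fold. Of the lipid handling genes of macrophages, 7 of 18 measured were 2-fold lower in Csf1r cells (median -0.66), namely Gpnmb, Spp1, Lpl, Fabp5, Cd36, Cd63 and Apoe, a set known from lipid-associated macrophages. The C1qa gate and the Kupffer cell markers were lower in this class as well, and within Treml4 or Ace monocytes the same 7 of 18 were 2-fold lower (median -0.64). Of all measured genes 3.8% were lower in the class and 266 of 7608 in that gate. Gpnmb stood at 95.9 CPM in WT, 18.2 CPM in miR-146a-/-, 34.1 CPM in DKO and 46.9 CPM in young WT, and Spp1 (osteopontin) at 140.2, 65.1, 80.2 and 46.3 CPM. The list had 0 higher and 2 of 10 lower in Cd3e (-0.23), 1 higher of 11 in Cd79a (Lgals3, median 0.21), 1 of 11 lower in Ncr1 (0.13) and 2 of 12 lower in Flt3 cells (-0.16). Of all measured genes 0.776% were lower in Cd3e, 1.24% in Ncr1 and 2.83% in Flt3 cells, and 1.25% higher in Cd79a cells.

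State genes of each class were read in that class. Beside them, 0.436%, 1.25%, 0.158%, 2.29% and 2.1% of all measured genes were 2-fold higher from Cd3e to Flt3. The shares of all measured genes 2-fold lower were 0.776%, 1.83%, 1.24%, 3.8% and 2.83%. In Csf1r cells 3 of 23 measured monocyte state genes were 2-fold higher, namely Vcan, Spn and Fcgr4, and 7 lower, namely C1qa, C1qb, C1qc, Il1b, Thbs1, Mrc1 and Cd209a (median 0.10). C1qa stood at 269 CPM in WT, 117 CPM in miR-146a-/-, 185 CPM in DKO and 226 CPM in young WT. In Cd3e cells 2 of 27 T-cell state genes were higher (Foxp3 and Cd4) and 1 lower, the homing receptor gene Ccr7 with 95.1 and 37.6 CPM (61.3 CPM in DKO, 155 CPM in young WT), at a median of -0.06. Of 11 inhibitory receptor genes measured there 1 was higher (Cd244a; median 0.02), and of 12 cytotoxic genes 1 lower (Gzmc; -0.00). In Ncr1 cells 1 of 24 NK and ILC1 genes was lower (Ifng, of interferon gamma; median 0.28) and 0 of 11 cytotoxic genes passed 2-fold (0.23). Dendritic cell state genes in Flt3 cells were higher for 3 of 20 (Clec10a, Tcf4 and Cd8a) and lower for 4 (Ccr7, Fscn1, Cacnb3 and Il12b), the lower ones being genes of mature dendritic cells, at a median of 0.25. Ccr7 stood in Flt3 cells at 1120.04 CPM in WT, 278.5 CPM in miR-146a-/-, 305 CPM in DKO and 225 CPM in young WT. In Cd79a cells 2 of 20 B-cell state genes were higher (Itgax and Cd80) and 2 lower (Jchain and Cd86), at a median of -0.24.

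Of the genes that the study follows in T cells, none passed 2-fold in the Cd3e class as a whole. Its gates differed, since in CD4 cells without Foxp3 the log2 ratios were 1.53 for Gzmk, 1.43 for Eomes and 1.02 for Pdcd1, while in Foxp3 cells they were -1.95, -1.42 and 0.08. The CD8 genes Cd8a and Cd8b1, and Gzma, Gzmb and Ifng, were 2-fold lower in Foxp3 cells too (78 and 284 cells). The part of CD8 transcripts in those ratios was not tested. In CD8 cells, the largest gate, 0 of 22 T-cell state genes were 2-fold higher and 1 lower (Ccr7). Pdcd1, the gene of PD-1, stood at 306 CPM in WT, 311 CPM in miR-146a-/-, 258 CPM in DKO and 39.9 CPM in young WT, and Gzmk, a granzyme of memory cells, at 690.2, 665, 656 and 112 CPM. Tox, a factor of exhausted T cells, stood at 495, 654, 544 and 212 CPM (log2 ratio 0.40), and Eomes, a T-box factor, at 152, 184, 158 and 56.6 CPM (0.27). Itga4, an integrin chain, had log2 ratios of 0.19, 0.32, 0.29, 0.58 and -0.35 from Cd3e to Flt3. Itgam was higher in Ncr1 cells, with 69.5 and 109 CPM (110.3 CPM in DKO, 179 CPM in young WT), and in Csf1r cells, with 135 and 245 CPM (224 and 206 CPM). Pdcd1 in Ncr1 cells stood at 35.9 and 59.1 CPM, and Tox was lower in Cd79a cells, with 46.9 and 10.9 CPM, 41.0% of its WT UMIs coming from 1 cell.

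Known targets of miR-146a had list medians near those of all measured genes or below them in the library without it, while single members went both ways. The list held 16 genes, and only those measured in a class or gate were counted, such as 13 in CD8 cells and 14 in Treml4 or Ace monocytes. Of those measured, 0 were 2-fold higher in Cd3e, Cd79a, Ncr1 and Csf1r cells and 1, Notch1, in Flt3 cells. Their medians were 0.03, -0.11, -0.02, -0.37 and -0.23 from Cd3e to Flt3, beside medians of all measured genes of 0.01, 0.01, 0.02, -0.01 and 0.09. Past 2-fold lower were Cxcr4 in Cd3e and Ncr1 cells and Ccl5 in Cd79a and Flt3 cells, among others. Ptgs2 was lower in Csf1r and Flt3 cells and Relb in Flt3 cells. Of all measured genes 0.436%, 1.25%, 0.158%, 2.29% and 2.1% were 2-fold higher from Cd3e to Flt3, and 0.776%, 1.83%, 1.24%, 3.8% and 2.83% lower. Irak1 stood in Cd3e cells at 56.9 CPM in WT, 70.2 CPM in miR-146a-/-, 58.7 CPM in DKO and 51.8 CPM in young WT, a log2 ratio of 0.30 (0.20 to 0.40), and its ratios were 0.05, 0.18, 0.10 and -0.07 in the other classes from Cd79a to Flt3. Traf6 had -0.12, -0.41, -0.29, -0.58 and -0.87 from Cd3e to Flt3, Irak2 0.21, -0.04, -0.41, -0.94 and -0.15, and Numb 0.04, 0.30, 0.08, 0.29 and -0.09. Notch1 had 1.26 in Flt3 cells, with 14.2 and 34.1 CPM (21.6 CPM in DKO, 32.1 CPM in young WT). Cxcr4, a chemokine receptor, was lower in Cd3e cells with 44.1 and 17.7 CPM and in Ncr1 cells with 37.2 and 7.74 CPM. The places in the 3′ untranslated regions (UTRs) of these transcripts that pair with the seed are shown for 1 site each, since miR-146a can pair there, as can miR-146b with the same seed. The capitals mark AGTTCTC, the DNA complement of bases 2 to 8. The sites are in GRCm38 with UTRs from GENCODE M21, Irak1 at chrX:74015386-74015415 (minus strand), Irak2 at chr6:113694118-113694147 (plus), Traf6 at chr2:101697944-101697973 (plus), Numb at chr12:83794806-83794835 (minus), Notch1 at chr2:26459256-26459285 (minus) and Nr4a3 at chr4:48084271-48084300 (plus).
Irak1: agactcagaggtcaaAGTTCTCatgcttgg
Irak2: gcccccaaacctcttAGTTCTCcacaacgg
Traf6: accgctctggtgttgAGTTCTCatttagtt
Numb: tagaatattttaaatAGTTCTCaatattaa
Notch1: ccaagaaaataaactAGTTCTCagagcctt
Nr4a3: tgtcaacctggacagAGTTCTCtaaaccta
Irak1 and Irak2 carried 2 such matches each, Traf6 4 and Numb, Notch1 and Nr4a3 1 each, while Relb, Cxcr4 and Ccl5 carried 0. Of the 7 shared genes, Nr4a3 was the only one with a match. Over all genes, 2331 of 20869 with a 3′ UTR carried it, and those measured had medians of 0.01 in Cd3e, 0.01 in Cd79a, 0.01 in Ncr1, -0.01 in Csf1r and 0.08 in Flt3 cells, beside 0.01, 0.00, 0.02, -0.00 and 0.09 over all measured genes with a UTR. The UTRs with a match were longer, at a median of 2745.5 bases among genes measured in Cd3e cells against 1167 for all.

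The region around the deleted locus on chromosome 11 was read as well, since alleles near a targeted gene are inherited with it. Of 66 genes within 5 Mb of the hairpin, 23 were measured in at least 1 class and 13 in all. In the Cd3e, Cd79a and Ncr1 classes 0 of 18, 16 and 16 measured genes passed 2-fold. In Csf1r cells 3 of 15 were lower, among them Adam19 and Havcr2 (-1.56), which encodes TIM-3, and in Flt3 cells Ccng1 was higher and Il12b lower among 18. The medians were 0.01, -0.05, 0.05, -0.02 and 0.03 from Cd3e to Flt3. Pttg1, an inhibitor of sister chromatid separation and the closest of the measured ones, had log2 ratios of 0.05, -0.18, -0.21, -0.53 and -0.01, and the splicing factor gene Slu7 -0.08, -0.06, 0.12, 0.06 and 0.12. Tgtp1 lies 5.61 Mb away, outside this window, and some of its neighbors there were low as well. From Cd3e to Flt3, 9930111J21Rik2 had log2 ratios of -2.02, -1.14, -1.79, -1.33 and -0.69, the interferon-induced Ifi47 -0.95, -1.34, -1.28, -0.74 and -0.20, and Tgtp2 -0.22, -1.32, -0.57, -1.89 and 0.03.

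The DKO and young WT values are set beside the ratios and enter none of them, and any ratio of theirs to the WT library would share that library. Immediate-early and heat shock genes are known to respond to the digestion of tissue too, and whether the livers were digested side by side is not given in the sources used here. With 1 library per genotype, the genotype, the mice and the handling of each liver before capture cannot be told apart.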

How the data were processed

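The authors aligned the reads of CD45+ liver cells with Cell Ranger to mm10 (GRCm38) and deposited, for each cell, unnormalized UMI counts of 32285 genes. The Cell Ranger version is 7.0.1 by the file headers but 5.0.0 by the methods of the paper, and whether intronic reads were counted is not given in the sources used here.

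From these counts, cells with 600 to 6000 genes and at most 5% mitochondrial UMIs were kept and gated by lineage UMIs. Doublets were limited by the upper limit on genes and by leaving out cells with UMIs of several lineage genes. UMIs were summed per class and library and scaled to CPM. A gene was measured in a class with a mean of at least 10 CPM and a sum of at least 40 UMIs. Log2 ratios (miR-146a-/- over WT) used a prior of 0.5 counts, with exact conditional Poisson intervals. Levels have exact Poisson intervals and shares exact Clopper-Pearson intervals, all at 95%. A fold against 0 counts used a floor of 3 counts. No test was made, since each group is 1 library. The scripts were tested on simulated counts.

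Genes are named by rule. They are the shared genes, the 5 nearest where a direction had fewer than 5, up to 4 genes of 1 class alone in each direction and class, the 5 largest higher and lower genes of a class, the members of the gene lists, the genes of the study and genes within 5 Mb of the miR-146a locus, without antigen receptor segments, genes of ribosomal proteins and mitochondrial genes. Gm21887, Tgtp2, 9930111J21Rik2 and the genes past 1.5-fold in every class were named after their values were seen. Some genes that met these rules are not reported here. Members and lists were chosen with earlier results of these data known.

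The alternatives were 2 UMIs of the lineage gene, cells of several lineages kept, 10% mitochondrial UMIs, a prior of 5 counts, TMM factors (edgeR 4.0.16, R 4.3.3), the mean over cells, at least 50 CPM and 100 UMIs, leaving out the 8% of cells with the most UMIs, thinning to 2000 UMIs, and 1.5-fold. The largest sub-gate of each class, and the shares with cells of several lineages kept, were added after seeing the data. Python 3.11.15, numpy 2.4.6, scipy 1.17.1, pandas 2.3.3 and matplotlib 3.10.9 were used. Promoters and miRNAs are from RefSeq (GRCm38.p6) and 3′ UTRs from GENCODE M21.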

Additional observations from a re-analysis of the deposited data

Results flagged for a closer look

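Some genes were at least 2-fold higher in the miR-146a-/- library in 1 class and at least 2-fold lower in another, so that the same comparison ran in opposite directions. The difference between the classes was not tested for any of them, and all values are log2 ratios of miR-146a-/- to WT.

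The neutrophil genes S100a8 and S100a9, whose products form calprotectin, were higher in every class but Flt3, where they were lower. S100a8 had 4.36 in Cd3e, 8.11 in Cd79a, 4.25 in Ncr1 and 4.90 in Csf1r cells but -4.14 in Flt3 cells. S100a9 had 3.74, 6.27, 4.44 and 4.43 in the same classes but -3.56 in Flt3 cells. When 2 UMIs of Flt3 were required, S100a8 had 0.96 in Flt3 cells, so its opposite directions were not seen there. The hemoglobin genes Hbb-bt and Hbb-bs had 2.02 and 1.496 in Cd3e cells but -9.04 and -7.17 in Csf1r cells. The UMIs of these genes in the low class came almost all from 1 cell of WT.

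Some interferon-stimulated genes were higher in Flt3 cells and lower in another class. Rsad2 had 2.05 in Flt3 cells and -1.44 in Csf1r cells. Ifit3 had 1.21 in Flt3 cells, -1.35 in Cd79a cells and -1.04 in Csf1r cells, and Ifit1 had 1.62 in Flt3 cells and -1.07 in Ncr1 cells. In Flt3 cells of the miR-146a-/- library 1 cell gave 83.2% of the Rsad2, 86.2% of the Ifit3 and 70.3% of the Ifit1 UMIs.

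Ccl24, a chemokine for eosinophils, had 6.58 in Flt3 cells, all from 1 cell, and -1.25 in Csf1r cells. Without the 8% of cells with the most UMIs it had -1.70 in Flt3 cells, so its opposite directions were not seen there. The costimulatory gene Cd80 had 1.14 in Cd79a and -1.14 in Csf1r cells, the growth arrest gene Gadd45a 1.09 in Csf1r and -1.40 in Cd79a cells, and the Ly49 gene Klra6 1.65 in Ncr1 and -1.08 in Cd3e cells. With cells of several lineages kept, Klra6 had 0.06 in Ncr1 cells, so its opposite directions were not seen there.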

How the results depend on the processing

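No paired analysis was possible because each genotype is 1 library. Of 131 log2 ratios of named genes, the 10% mitochondrial limit left all 131 within their counting interval, TMM factors 129, 2 UMIs of the lineage gene 127, a prior of 5 counts 122, leaving out the 8% of cells with the most UMIs 115, the mean over cells 103, the largest sub-gate 101, thinning 71 (1 ratio had no UMIs to read) and cells of several lineages kept 63. Of the 110 ratios past 2-fold, 78 were still past it with cells of several lineages kept, 95 of 109 with thinning, 103 in the largest sub-gates and at least 106 in each other case. Of the 7 shared genes, all remained with the 10% limit, without the 8% of cells and in the largest sub-gates, 6 with 2 UMIs (without Slc15a2), a prior of 5 counts (without Slc15a2), TMM factors, the mean over cells and cells of several lineages kept (each without Dusp1), and 4 with thinning (without Dusp1, Slc15a2 and Gm47283). Of the 82 genes of 1 class alone, 78 were kept with the 10% limit, 69 with 2 UMIs, 67 with TMM factors and with a prior of 5 counts, 49 without the 8% of cells, 48 with the mean over cells, 35 in the largest sub-gates, 7 with thinning and 3 with cells of several lineages kept. The cause of each move below was not tested.

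With 2 UMIs, 43 genes were of the Flt3 class alone, and the shares of kept cells were 35.5% in WT and 42.6% in miR-146a-/- for Cd3e, 5.37% and 12.7% for Csf1r, 1.51% and 2.04% for Flt3 and 15.6% in WT for Ncr1. With cells of several lineages kept, 1 gene was shared higher (Hp) and 14 lower, genes of 1 class alone numbered 2 in Cd3e, 0 in Cd79a, 7 in Csf1r and 5 in Flt3, and 63 Cd3e genes were higher and 99 lower, 178 Csf1r genes lower and 81 Flt3 genes higher. The shares of kept cells, read so after seeing the data, were then 57.9% in WT and 57.5% in miR-146a-/- for Cd3e, 13.5% and 8.65% for Cd79a, 24.04% and 15.6% for Ncr1, 21.9% and 27.6% for Csf1r and 7.78% and 7.03% for Flt3. Without the 8% of cells, genes of 1 class alone numbered 1 in Cd3e, 1 in Ncr1 and 85 in Flt3, 320 Flt3 genes were higher and 355 lower, and the shares were 39.8% and 46.6% for Cd3e, 17.5% and 12.8% for Ncr1 and 1.72% and 2.17% for Flt3. With thinning, genes of 1 class alone numbered 1 in Cd3e, 1 in Cd79a and 13 in Csf1r, 101 Cd3e genes were lower, 29 Ncr1 genes higher and 83 Flt3 genes higher and 89 lower, and the shares were 41.6% and 45.7% for Cd3e, 8.95% and 6.51% for Cd79a, 1.71% and 1.85% for Flt3 and 7.48% in WT for Csf1r.

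With the mean over cells, genes of 1 class alone numbered 1 in Cd3e, 11 in Cd79a, 0 in Ncr1 and 74 in Csf1r. With at least 50 CPM and 100 UMIs, fewer genes were measured, 2 were shared lower, and 1, 1, 9 and 5 were of Cd79a, Ncr1, Csf1r and Flt3 alone. The higher and lower genes were then 9 and 27 in Cd3e, 50 and 48 in Cd79a, 0 and 38 in Ncr1, 72 and 98 in Csf1r and 42 and 94 in Flt3. At 1.5-fold, a wider limit, 5 genes were shared higher and 31 lower, and 6, 77, 13, 313 and 323 were of Cd3e, Cd79a, Ncr1, Csf1r and Flt3 alone. The higher and lower genes were 117 and 168, 298 and 385, 126 and 267, 576 and 691, and 806 and 548 in that order. In the largest sub-gate of each class, added after seeing the data, 1 gene was of Cd3e and 17 of Flt3 alone, and 20 Ncr1 genes were higher.

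Reversed were Foxp3 in Cd3e cells in the largest sub-gate (-0.20), Hsd11b1 in Csf1r cells with several lineages kept (-0.023), Slc43a2 in Flt3 cells with thinning (-0.14), Ccl24 in Flt3 cells without the 8% of cells (-1.70) and S100a8 in Flt3 cells with 2 UMIs (0.96). Flt3, the smallest class of WT with 2891866 UMIs, has wide counting intervals.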

Other observations

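Hp, the gene of haptoglobin, was outside the named genes and was picked after its values were seen. It stood in Csf1r cells at 577 CPM in WT and 1262 CPM in miR-146a-/- (log2 ratio 1.13) and in Cd79a cells at 4.44 and 22.7 CPM (2.32).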
